A study of Mus musculus with 5 samples.

Results

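A group of 9 transcription factor genes known to direct the lineage of somatosensory neurons were followed across the cell types of the adult mouse lumbar dorsal root ganglion (DRG). They are Runx1, Runx3, Pou4f1, Pou4f2, Pou4f3, Isl1, Isl2, Tlx3 and Prdm12. These genes were chosen by name, and all 9 have a row among the 17267 mouse gene rows of the count table. The table holds single-cell RNA counts of 3352 cells from 5 wild-type C57BL/6 mice of 1 condition, 3 males and 2 females aged 18 weeks, captured in droplets and read at the 3′ end. Each count is of unique molecular identifiers (UMIs), tags that keep copies made by PCR from being counted again. The labels and methods name no treatment and no transgene, and every comparison is between cell types within the same mice. The authors sorted the cells into 14 types, and these names were used as deposited. The 3 neurofilament types (NF_Calb1, NF_Pvalb, NF2_Ntrk2.Necab2) are neurons with myelinated axons. The 3 non-peptidergic types (NP_Mrgprd, NP_Mrgpra3, NP_Nts) and the 5 peptidergic types (PEP1_Dcn, PEP1_S100a11.Tagln2, PEP1_Slc7a3.Sstr2, PEP2_Htr3a.Sema5a, PEP3_Trpm8) are mostly sensors of pain, itch and temperature. Th cells are neurons with tyrosine hydroxylase, known as low-threshold touch neurons of hairy skin, and satellite glia and endothelial cells complete the list. Because the types were made from these same counts, a difference between them measures how far a factor separates them and is no independent evidence that the types exist.

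These factors act in sequence while a ganglion forms. The POU-domain protein Pou4f1 (Brn3a) and the LIM-homeodomain protein Isl1 are known to act in nearly all newborn sensory neurons and to end the early neurogenic programme. The Runt-domain proteins then divide the lineages: Runx1 is known for the unmyelinated pain, itch and cold lineages, and Runx3 for the proprioceptors, which sense muscle length and use the receptor Ntrk3. Prdm12, a PR-domain protein, is needed for the nociceptive lineage, and its loss in people causes a congenital inability to feel pain. Tlx3 is a homeodomain protein that works with Runx1 in nociceptors, Isl2 is the close relative of Isl1, and Pou4f2 and Pou4f3 are the relatives of Pou4f1 best known from retinal ganglion cells and inner ear hair cells. The ganglia here were adult, so the values describe what remains of this programme after the lineages have formed.

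The genes lie on 9 chromosomes of GRCm38, the assembly named mm10. Their positions in the GENCODE M21 annotation are chr16:92601466-92826149 on the minus strand for Runx1, chr4:135120652-135177990 on the plus strand for Runx3, chr14:104461676-104467999 on the minus strand for Pou4f1, chr8:78433010-78436645 on the minus strand for Pou4f2, chr13:116298281-116309689 on the minus strand for Isl1, chr9:55538672-55546180 on the plus strand for Isl2, chr11:33200752-33203589 on the minus strand for Tlx3 and chr2:31640037-31655795 on the plus strand for Prdm12, with Pou4f3 on chromosome 18. All 9 are protein-coding, and none overlapped another annotated gene on its own strand. The opposite strand carries Gm26626 within Runx1, Gm16224 within Runx3, Gm17226 over Isl2 and Gm13425 over Prdm12, and whether the counting used strand is not given in the sources used here.

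Levels are UMIs summed over the cells of a type in a library and divided by the summed UMIs of all genes, scaled to counts per 1000000 (CPM), with the mean ± SD over the 5 libraries, Sample1 to Sample5. Library totals ran from 13050375 to 88886919 UMIs over 164 to 1370 cells, and the median cell held 52499.5 to 72840 UMIs in a library. Satellite glia and endothelial cells were shallower, with medians of 17729 and 16889 UMIs per cell against 30800.5 to 105150 in the neuron types. In the check of the type labels, 6 neuron markers summed to means of 12261 to 16879 CPM in the neuron types. They summed to 692 in satellite glia and 760 in endothelial cells. The 5 satellite glia markers summed to 90180 CPM in the glia and 46.5 to 566 in the neuron types. Endothelial cells held 4519 CPM of these glia markers, and up to 14210 in a library. The 5 endothelial markers summed to 6926 CPM in the endothelial cells, 29.0 in the glia and 6.06 to 139 in the neuron types. Of 3345 distinct cell barcodes, 7 occurred in more than 1 library. Sample1 was the smallest library and held 3 to 36 cells of each neuron type, so its values of low genes in rare types are the least certain.

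Pou4f1, Isl1, Isl2 and Tlx3 marked neurons as a class. These 4 factors were present in all 12 neuron types, with lowest means of 114 CPM for Pou4f1 in PEP1_Slc7a3.Sstr2, 86.5 for Isl1 in NF2_Ntrk2.Necab2, 66.1 for Tlx3 and 19.3 for Isl2, both in NF_Pvalb. In satellite glia Pou4f1 stood at 4.77, Isl1 at 6.32, Isl2 at 8.52 and Tlx3 at 6.34 CPM. Of 3047 neurons, 2979 held a UMI of both Pou4f1 and Isl1 and 4 held neither, and 2845 (93.4%) held a UMI of Pou4f1, Isl1 and Isl2 together. That triple occurred in 1 of 249 satellite glia (0.402%) and in 0 of 56 endothelial cells, which allows a share of up to 5.36%. In edgeR's quasi-likelihood test of neurons against satellite glia, which averages the log levels of the 12 types, Pou4f1 was 5.04 ± 0.23 higher (log2 fold change ± SE), Tlx3 4.27 ± 0.21, Isl1 4.26 ± 0.21, Prdm12 4.15 ± 0.43 and Isl2 4.11 ± 0.24, each in 5 of 5 libraries. These 5 of 9 members passed the call rule, an adjusted p under 0.01 and at least a 2-fold difference, and all 5 were higher. Of the 11886 genes tested, 50.7% were called, 24.9% higher and 25.8% lower. Against endothelial cells Runx1 and these 5 were called higher, 6 of 9 where 50.3% of all genes were called, 28.9% higher and 21.4% lower. There the folds of Tlx3, Pou4f1 and Prdm12 rest on 3, 3 and 1 UMIs in the endothelial cells.

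**Figure D1:**
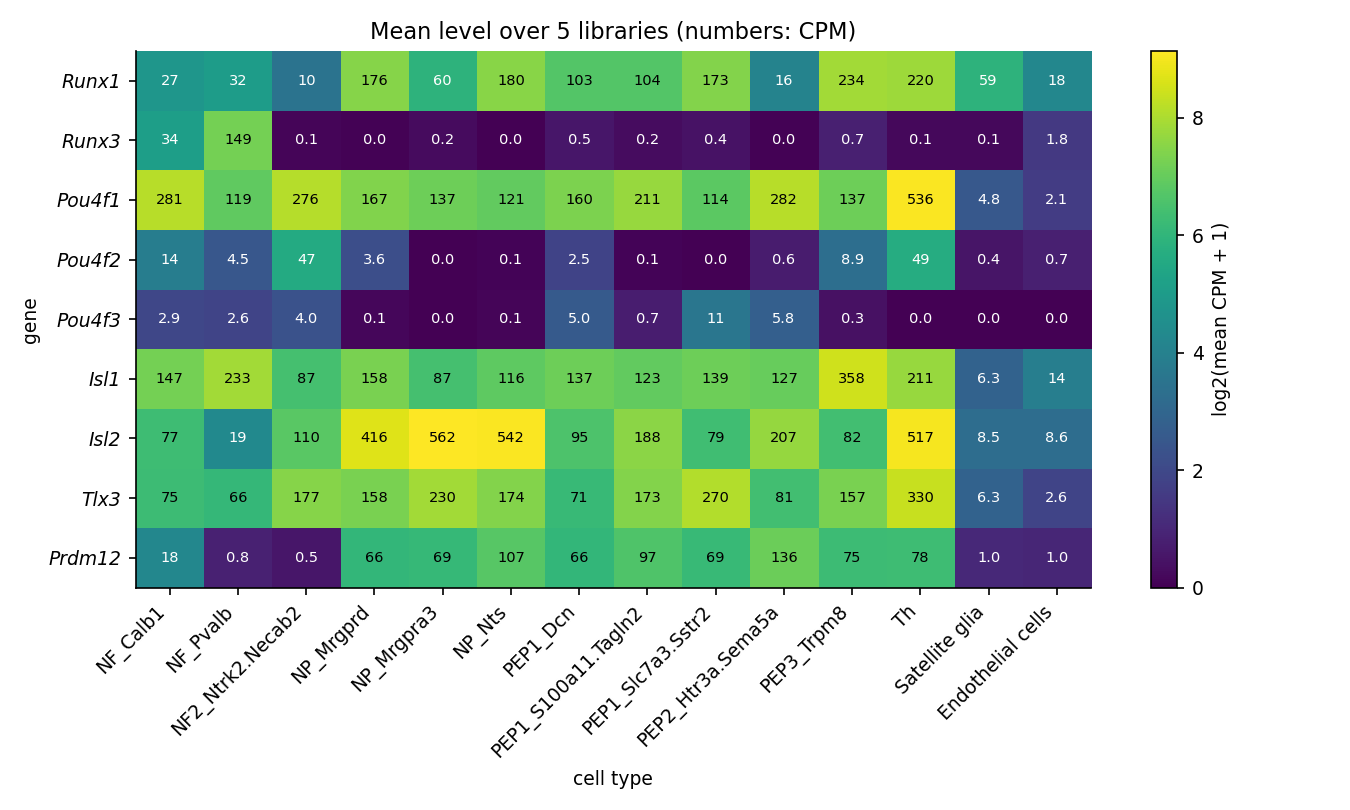
Mean level of the 9 factors in the 14 cell types, with cell types along the x axis, genes along the y axis, the colour giving log2(mean CPM + 1) over the 5 libraries and the printed numbers giving the mean CPM. Pou4f1, Isl1, Isl2 and Tlx3 were present in all 12 neuron types, while Runx3 reached 149 CPM in NF_Pvalb and 34 in NF_Calb1 and under 2 elsewhere.

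Runx1 divided the neuron types into a high, a middle and a low tier. In PEP3_Trpm8, the menthol- and cold-sensing type, it stood at 261, 214, 225, 233 and 238 CPM in Sample1 to Sample5 (234 ± 17.5). In Th it stood at 217, 220, 219, 231 and 214 CPM (220 ± 6.68). Neighbours in an order of levels are said to differ beyond their spread where the mean difference of log2(CPM + 1) within libraries exceeds its SD. PEP3_Trpm8 and Th did not, and every library of Th lay above every library of the next type, NP_Nts (180 ± 13.8 CPM). NP_Mrgprd, with a mean of 176 CPM and libraries from 159 to 193, and PEP1_Slc7a3.Sstr2 (173 ± 20.8) followed without a difference beyond the spread. PEP1_S100a11.Tagln2 and PEP1_Dcn formed a middle level of 104 ± 8.46 and 103 ± 26.3 CPM. NP_Mrgpra3, the itch-sensing type marked by Mrgpra3, held 59.6 ± 8.65 CPM, with its 5 libraries between 47.6 and 70.3, all below both of those PEP1 types and below the 2 other NP types. The lowest 4 neuron types were NF_Pvalb at 32.0 ± 6.45, NF_Calb1 at 26.7 ± 13.3, PEP2_Htr3a.Sema5a at 15.8 ± 7.33 and NF2_Ntrk2.Necab2 at 10.0 ± 4.03 CPM, 23.3 times below PEP3_Trpm8, and no neighbours from NF_Pvalb downwards, endothelial cells included, differed beyond their spread.

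PEP2_Htr3a.Sema5a stood with the NF types for Runx1 and apart from the other PEP types. Its Runx1 levels were 9.71, 26.5, 12.9, 9.82 and 20.3 CPM, and its highest library lay below the lowest library of every other PEP type, which was 71.8 CPM in PEP1_Dcn. Against the mean of the other 11 neuron types Runx1 was lower in PEP2_Htr3a.Sema5a by a log2 fold change of -2.36 ± 0.17 (adjusted p = 1.49e-20), and by -3.16 when the other types were summed before the fit. Of its 206 cells, 105 held a Runx1 UMI and 10 held 6 or more, against 109 of 168 cells with 6 or more in PEP3_Trpm8. PEP2_Htr3a.Sema5a had at the same time the highest Prdm12 of all types, so a low Runx1 and a high Prdm12 met in 1 type. In this type 3 neurofilament markers summed to a mean of 8947 CPM, above the 6538 of NF2_Ntrk2.Necab2. They stood at 14701 in NF_Pvalb, 17690 in NF_Calb1 and 1413 to 2621 in the other PEP types.

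**Figure D2:**
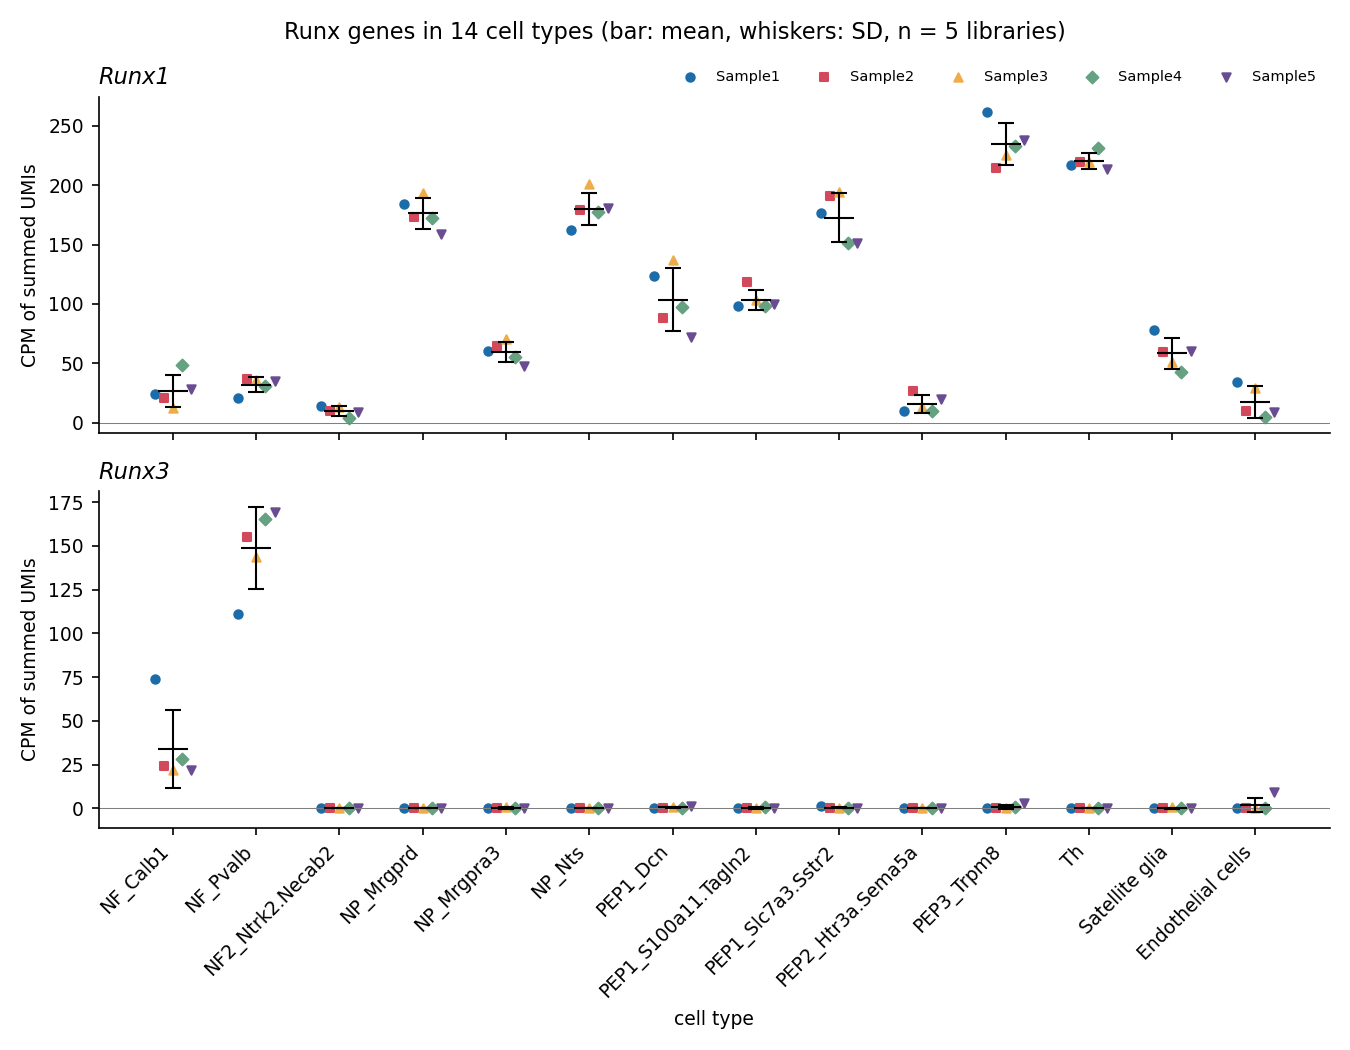
Runx1 (upper panel) and Runx3 (lower panel) in the 14 cell types along the x axis, as CPM of summed UMIs on a linear y axis, where points are the 5 libraries, horizontal bars their mean and whiskers the SD. Runx1 lay at 10 to 32 CPM in the NF types and PEP2_Htr3a.Sema5a and at 60 to 234 CPM in the other neuron types, and Runx3 was near 0 outside NF_Pvalb and NF_Calb1, with Sample1 apart from the other libraries in NF_Calb1.

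Runx1 was the exception among the factors outside the neurons. Satellite glia held 78.2, 59.6, 51.3, 42.8 and 60.6 CPM of Runx1 in Sample1 to Sample5 (58.5 ± 13.2), above all 5 libraries of NF_Pvalb and overlapping those of NP_Mrgpra3 (47.6 to 70.3). A Runx1 UMI was found in 140 of 249 glia (56.2%, exact 95% interval 49.8 to 62.5, counting error only), while UMIs of Tlx3, Isl1 and Pou4f1 were found in 10.0%, 9.24% and 6.83% of them. For each 100 UMIs of Pou4f1, Isl1, Isl2, Tlx3 and Prdm12 together, satellite glia held 213 of Runx1 (exact interval 170 to 268) and the 12 neuron types 14.7 (14.6 to 14.9), and no neuron type exceeded 28.9. These ratios pool UMIs over cells and libraries, and the source of the Runx1 UMIs in the glia was not tested. With every cell thinned to 10000 UMIs, the expected share of cells with a Runx1 UMI was 38.5% in satellite glia, 18.5% in NF_Calb1, 13.5% in PEP2_Htr3a.Sema5a and 8.13% in NF2_Ntrk2.Necab2. The 140 glia with a Runx1 UMI and the 109 without held 692 and 746 CPM of the neuron markers in sum, and 49.6 and 5.82 CPM of the endothelial markers, whose part in the Runx1 level was not tested. Endothelial cells held 17.6 ± 13.3 CPM of Runx1, on 15 UMIs in all.

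Whether neurons exceeded glia for Runx1 depended on how neurons were averaged. The mean of the log levels of the 12 types differed from the glia by 0.08 ± 0.16 (adjusted p = 0.687), and that mean was higher in neurons in 4 of 5 libraries. With all neurons of a library summed first, which weights types by their UMIs, neurons were higher by 1.09 ± 0.13 (adjusted p = 8.63e-07) and in 5 of 5 libraries. In that fit 8 of 8 members tested were called higher in neurons, where 54.2% of all genes were called, 32.6% higher and 21.6% lower. Runx3 had 1 UMI and Pou4f3 0 UMIs there, the latter allowing up to 0.656 CPM.

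Runx3 was the most restricted of the Runx genes. In NF_Pvalb, the type marked by the calcium-binding protein parvalbumin that proprioceptors carry, it stood at 111, 155, 144, 166 and 170 CPM in Sample1 to Sample5 (149 ± 23.4). In NF_Calb1 it stood at 73.8, 23.9, 22.1, 28.2 and 22.0 CPM (34.0 ± 22.4), and without Sample1 the mean was 24.1. Every library of NF_Pvalb lay above every library of NF_Calb1. In the other 10 neuron types together there were 32 Runx3 UMIs in 196573577, 0.163 CPM, against 1625 UMIs and 72.3 CPM in the 2 NF types, a ratio of 444 (exact interval 313 to 652, counting error only). NF2_Ntrk2.Necab2, also an NF type, held 1 Runx3 UMI in 58 cells. Of the 113 NF_Pvalb cells, 111 (98.2%) held a Runx3 UMI and 96 held 6 or more. With groups summed before the fit, Runx3 was higher in NF types than in NP, PEP and Th types by a log2 fold change of 8.37 ± 0.26 (adjusted p = 6.92e-12) and higher in NF_Pvalb than in the other NF types by 2.75 ± 0.30 (adjusted p = 1.07e-06). The fit that averages log levels also called both, but its fold rests on types with 3 UMIs or fewer, and it lost the first call without Sample5 and without the cells over 10% mitochondrial UMIs.

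Runx3 was carried by a minority of NF_Calb1 cells at a high level rather than by all of them at a low one. Of 180 cells, 148 held 0 Runx3 UMIs, 2 held 1 or 2, 4 held 3 to 5 and 26 held 6 or more, up to 35. The 32 cells with a UMI came from all 5 libraries, as 6 of 16 in Sample1, 6 of 29 in Sample2, 7 of 44 in Sample3, 4 of 24 in Sample4 and 9 of 67 in Sample5. Within those cells Runx3 stood at 184 ± 44.2 CPM, with libraries from 115 to 230, which overlapped the range of NF_Pvalb. Their median depth was 67451.5 UMIs, near the 66720 of NF_Pvalb cells and below the 81277.5 of the other NF_Calb1 cells. Since cells were divided by their Runx3 UMIs after the values were seen, the levels that follow are a description with no test.

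The NF_Calb1 cells with Runx3 differed in several genes from the other NF_Calb1 cells and from NF_Pvalb. Calb1, the calcium-binding protein that gives the type its name, stood at 5.47 ± 6.13 CPM in them and at 252 ± 82.1 in the NF_Calb1 cells without Runx3, with libraries of up to 14.4 against 175 and more, and at 12.8 ± 4.92 in NF_Pvalb. The neurotrophin receptor Ntrk2 stood at 27.9 ± 11.7 against 156 ± 22.4 CPM, and at 9.04 ± 2.30 in NF_Pvalb. Pvalb stood at 592 ± 387 CPM against 49.4 ± 37.6, and at 2773 ± 321 in NF_Pvalb. Ntrk3, the receptor of the proprioceptive lineage, stood at 448 ± 202 CPM in the NF_Calb1 cells with Runx3, 331 ± 82.6 in those without (224 to 447) and 173 ± 23.8 in NF_Pvalb. In the cells with Runx3 its 5 libraries (277 to 763) all lay above those of NF_Pvalb (147 to 205) and overlapped those of the cells without it. Isl2 stood at 43.5 ± 6.04 CPM in the NF_Calb1 cells with Runx3, 85.6 ± 17.8 in those without and 19.3 ± 5.53 in NF_Pvalb, with no overlap between any of them. No doublet caller was run, and whether some of these droplets held 2 cells was not tested.

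Prdm12 divided the same type along another line. It was found in 35 of the 180 NF_Calb1 cells, and in 0 of the 32 with Runx3, where a count of 0 allows a share of up to 9.38%. The remaining 113 cells held neither. In the 35 Prdm12 cells Prdm12 stood at 94.7 ± 25.8 CPM, among the levels of the PEP types. They also held 833 ± 483 CPM of Calca, the neuropeptide CGRP, and 225 ± 86.6 of Scn11a, a sodium channel of nociceptors, where the cells with neither factor held 23.9 ± 10.3 and 13.5 ± 6.93 CPM and the libraries did not overlap. Calb1 was highest in the cells with neither factor, at 319 ± 84.9 CPM, with Ntrk2 at 196 ± 39.5.

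**Figure D3:**
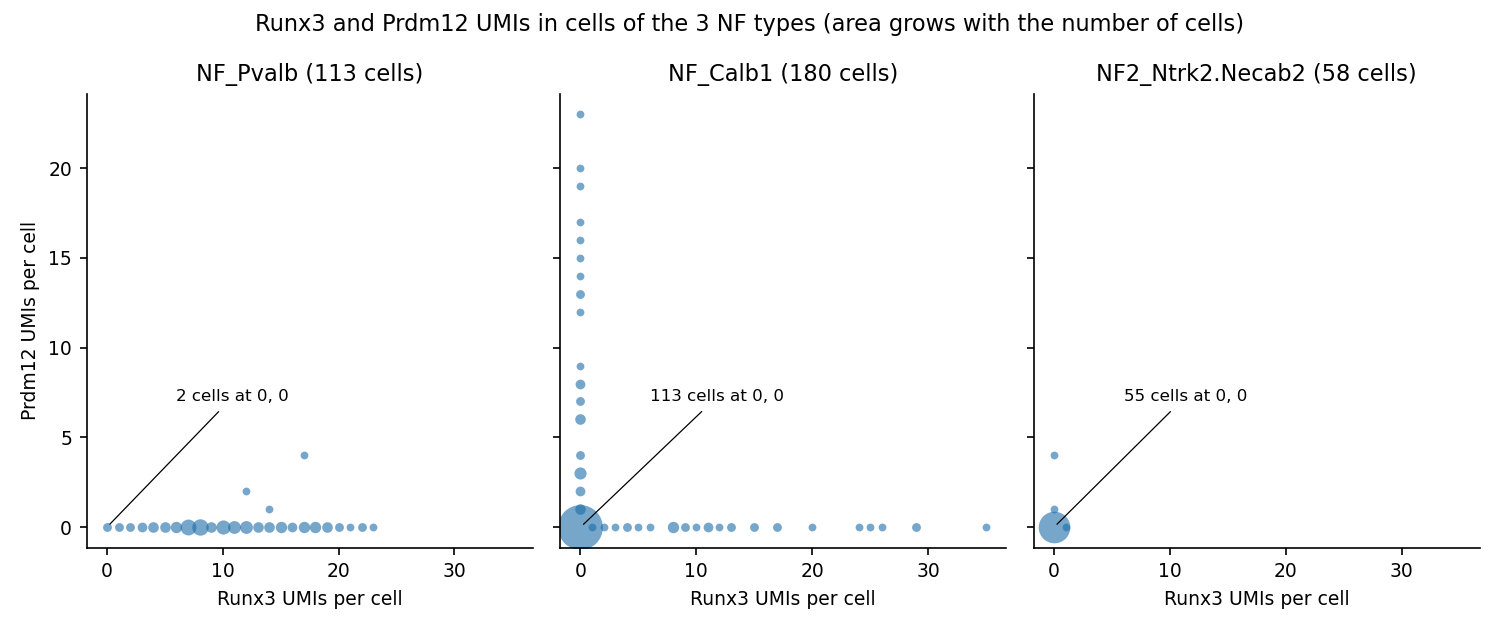
Runx3 UMIs per cell (x axis) against Prdm12 UMIs per cell (y axis) in the cells of the 3 NF types, where the area of a point grows with the number of cells at that pair of counts. In NF_Calb1 the 32 cells with Runx3 and the 35 with Prdm12 lay along separate axes and 113 cells sat at 0 for both, while 111 of 113 NF_Pvalb cells held Runx3.

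Runx1 and Runx3 UMIs met in the same cells. Of the 171 neurons with a Runx3 UMI, 131 (76.6%) also held a Runx1 UMI, and with at least 2 UMIs of each gene 69 of 143 (48.3%) did. Among the remaining neurons the shares with Runx1 were higher, at 91.6% and 86.8%. Within the 3 NF types a Runx1 UMI was found in 73.6% of cells with a Runx3 UMI and 46.4% of those without. Of the 171, 27 belonged to the other 9 neuron types, and 25 of these held Runx1. Among NF_Pvalb cells 88 of 113 held both, and the 89 with Runx1 had few of it, since 12 cells held 6 or more Runx1 UMIs and 96 held as many of Runx3. In NF_Calb1 a Runx1 UMI was found in 17 of the 32 cells with Runx3 and 71 of the 148 without, 53.1% and 48.0%. The share of cells with a Runx1 UMI was 78.8% in NF_Pvalb, 48.9% in NF_Calb1 and 43.1% in NF2_Ntrk2.Necab2, at median depths of 66720, 77900 and 96530.5 UMIs per cell. With every cell thinned to 10000 UMIs the expected shares were 27.8%, 18.5% and 8.13%.

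The start sites of Runx1 and Runx3 share a stretch that holds 2 copies of the Runt-domain binding motif. RefSeq start-site windows of GRCm38.p6, from 250 bases before to 50 after a start, were matched for 8 of the 9 genes, 10 windows in all. They were searched for ACCACA and its reverse complement TGTGGT. Only the upstream windows of Runx1 and Runx3 held it, each with 2 copies on the gene's strand set 2 bases apart, and none of the other 8 windows did. The 30 bases around the pair are shown 5′ to 3′ on the gene's strand, with the motif in capitals, from chr16:92826025-92826054 (minus strand) for Runx1, where the first copy begins 28 bases after the start, and from chr4:135120503-135120532 (plus strand) for Runx3, where it begins 134 bases before.
Runx1: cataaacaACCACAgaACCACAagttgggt
Runx3: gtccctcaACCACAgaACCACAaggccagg
A run of 18 bases is identical in both and occurs in 4 of 32851 windows, those of Runx1, Runx3, their relative Runx2 and Gm16225, whose window overlaps that of Runx3 on the other strand. At least 1 copy of the motif was found in 16.8% of all windows and the pair in 7 windows (0.0213%). A match of letters is no evidence of binding, and 3′ end counts do not show which start a transcript used.

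Prdm12 was held by the NP, PEP and Th types and nearly absent from 2 NF types. The highest type was PEP2_Htr3a.Sema5a, with 129, 129, 124, 140 and 157 CPM in Sample1 to Sample5 (136 ± 13.1). NP_Nts followed at 107 CPM (89.2 to 139), with a difference beyond the spread that 4 of 5 libraries showed and ranges that overlap. PEP1_S100a11.Tagln2 held 97.1 ± 17.2 CPM, and the other 6 NP, PEP and Th types lay between 65.6 and 78.3 CPM with no neighbours among them apart. NF_Calb1 held 17.97 ± 6.39 CPM, all 5 libraries below those of the 9 types above, and its UMIs came from the 35 cells described before. NF_Pvalb and NF2_Ntrk2.Necab2 held 0.79 ± 1.02 and 0.47 ± 0.73 CPM, from 7 and 5 UMIs, no more than the 1.05 ± 1.17 CPM of satellite glia. Prdm12 was lower in the NF types by a log2 fold change of -5.08 ± 0.18 as a mean of log levels (adjusted p = 1.11e-37) and by -3.03 ± 0.24 with groups summed (adjusted p = 2.97e-08), and lower in 5 of 5 libraries. NP and PEP types differed by -0.04 ± 0.095 as a mean of log levels (adjusted p = 0.771). In pooled CPM, which weights types by their UMIs, NP types held 67.2 and PEP types 97.6. Their ratio was 0.688 (exact interval 0.665 to 0.713, counting error only).

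The 3 Pou4f genes had separate patterns. Pou4f1 was broad and highest in Th, with 530, 536, 409, 626 and 580 CPM in Sample1 to Sample5 (536 ± 81.0), all above the highest library of any other type. PEP2_Htr3a.Sema5a (282 ± 32.4), NF_Calb1 (281 ± 15.1) and NF2_Ntrk2.Necab2 (276 ± 59.7) followed and did not differ beyond their spread, and the range over the 12 neuron types was 4.69-fold. The difference of Th from the other types was 1.63 ± 0.09 as a mean of log levels (adjusted p = 2.64e-25) and 1.61 with groups summed. NF_Pvalb, at 119 ± 21.2 CPM, was lower than the other NF types by -1.24 ± 0.14 (adjusted p = 2.24e-11) and lower in 5 of 5 libraries.

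Pou4f2 was highest in Th and NF2_Ntrk2.Necab2. Th held 44.3, 48.4, 47.5, 50.5 and 55.5 CPM (49.2 ± 4.16) and NF2_Ntrk2.Necab2 held 46.6, 41.1, 35.7, 50.1 and 61.1 CPM (46.9 ± 9.61), which did not differ beyond their spread. NF_Calb1 came next at 13.7 ± 3.09 CPM, below every library of both, and its 95 cells with a Pou4f2 UMI were 52.8% of the type, against 96.6% in NF2_Ntrk2.Necab2 and 90.1% in Th. Th and NF2_Ntrk2.Necab2 together held 50.4 CPM of Pou4f2 and the other 10 neuron types 3.38 CPM, a ratio of 14.9 (exact interval 13.5 to 16.5). NP_Mrgpra3 and PEP1_Slc7a3.Sstr2 held 0 UMIs, which allows up to 0.314 and 0.224 CPM, whereas NP_Mrgprd held 3.62 ± 0.36 CPM with a UMI in 30.4% of its cells. In PEP1_Dcn the UMIs came from 7 of 35 cells in Sample2 and 6 of 67 in Sample5 and from 0 cells of the other 3 libraries, and without Sample2 its mean of 2.55 CPM fell to 1.13. Th is a low-threshold touch type and NF2_Ntrk2.Necab2 carries the receptor Ntrk2 known from a fast-adapting touch lineage. Of the 720 neurons with a Pou4f2 UMI, 719 also held a Pou4f1 UMI, as did 98.6% of the neurons without Pou4f2.

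Pou4f3 was the weakest factor, with 372 UMIs in all cells, and it was at 0 UMIs in Th, where Pou4f2 was highest. It stood at 14.7, 10.4, 11.9, 11.5 and 6.93 CPM in PEP1_Slc7a3.Sstr2 (11.1 ± 2.81), above every library of the next type, PEP2_Htr3a.Sema5a (5.84 ± 0.44). PEP1_Dcn held 4.96 ± 3.66 CPM and NF_Calb1 2.86 ± 0.82. The means of NF2_Ntrk2.Necab2 (3.97 CPM) and NF_Pvalb (2.64 CPM) rested on Sample1, which held 3 and 6 cells of these types, and without it both were 1.38 CPM. Th and NP_Mrgpra3 held 0 UMIs in 232 and 104 cells, which allows a share of up to 1.29% and 2.88% of cells with a UMI. Against the other neuron types, Pou4f3 was higher in PEP1_Slc7a3.Sstr2 by 3.01 with groups summed and 8.54-fold in pooled CPM (exact interval 6.85 to 10.6), and it was lower in NP than in PEP types by -5.78 ± 0.31 with groups summed (adjusted p = 3.91e-10), from 10 UMIs in NP and 297 in PEP types. Not all PEP types shared in this, since PEP3_Trpm8 held 2 of those UMIs and PEP1_S100a11.Tagln2 held 9, at 0.369 and 0.931 pooled CPM.

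**Figure D4:**
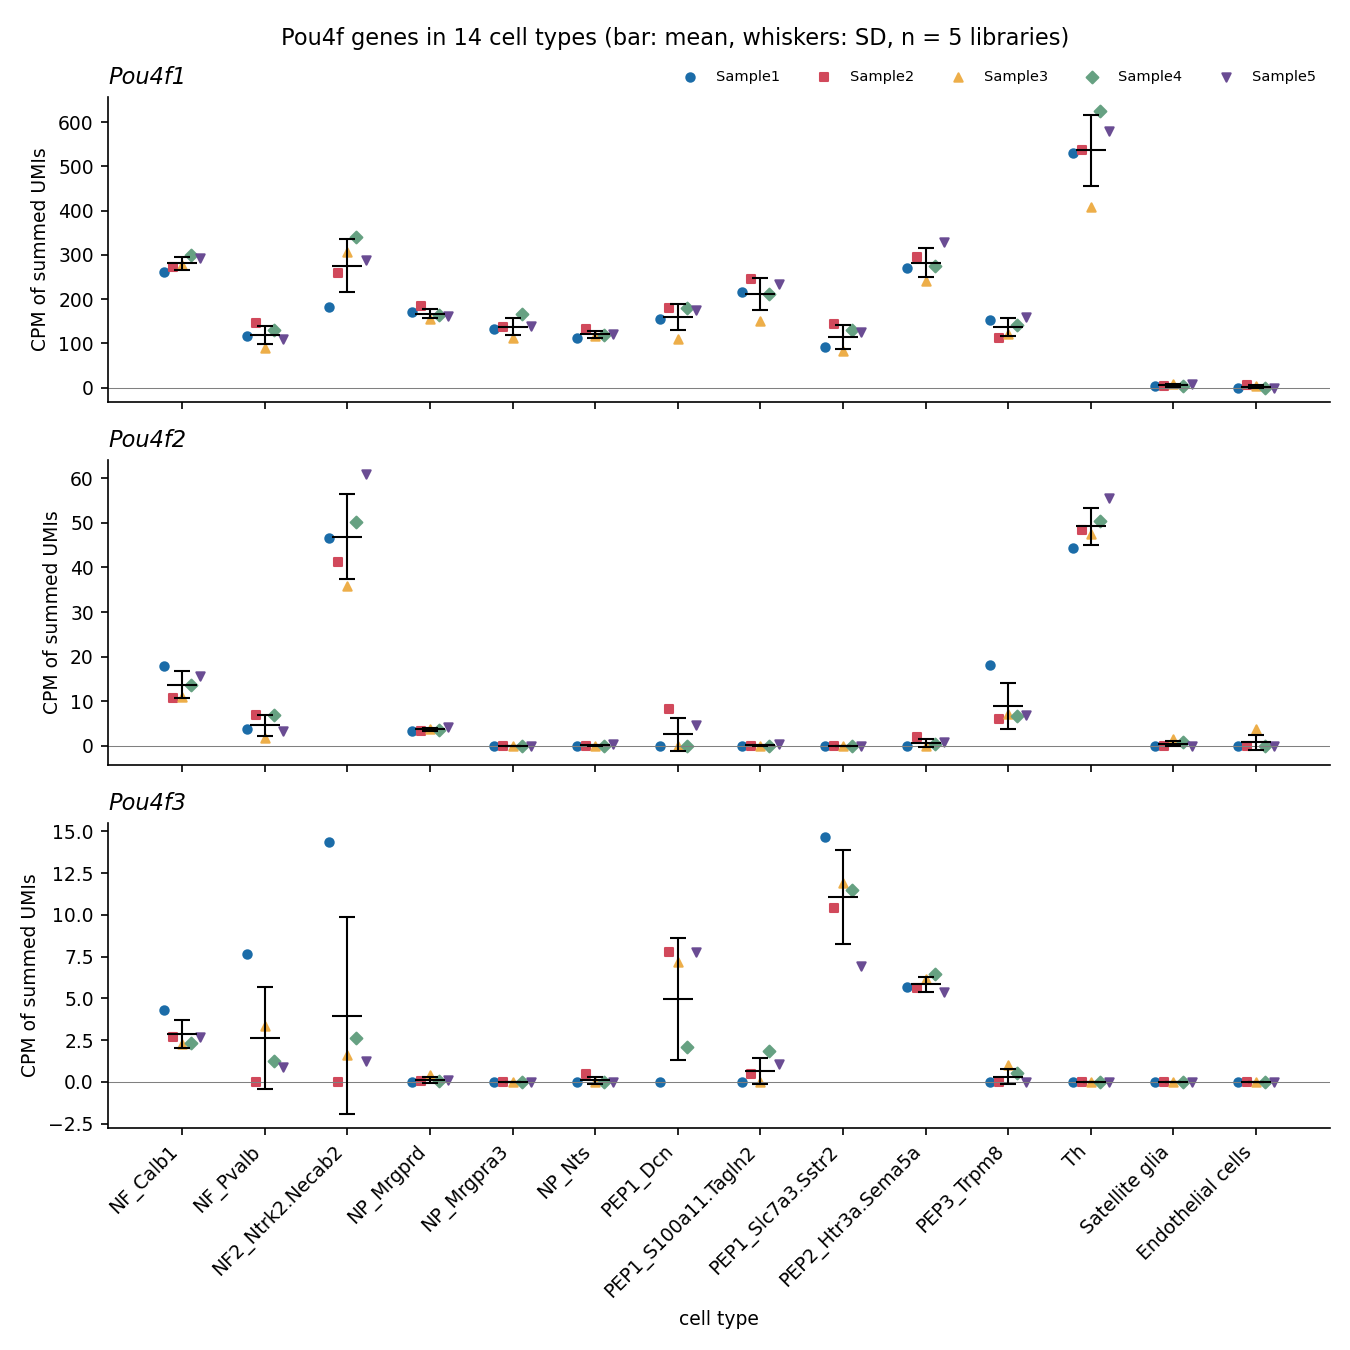
Pou4f1, Pou4f2 and Pou4f3 in the 14 cell types along the x axis, as CPM of summed UMIs on linear y axes that differ between panels, where points are the 5 libraries, horizontal bars their mean and whiskers the SD. Pou4f1 was highest in Th (536 CPM), Pou4f2 in Th and NF2_Ntrk2.Necab2 (49.2 and 46.9 CPM) and Pou4f3 in PEP1_Slc7a3.Sstr2 (11.1 CPM).

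Isl1 and Isl2 differed in which types they favoured. Isl1 stood highest in PEP3_Trpm8, with 460, 292, 362, 358 and 320 CPM in Sample1 to Sample5 (358 ± 63.5), above every library of NF_Pvalb (233 ± 22.4) and of Th (211 ± 38.7). From NP_Mrgprd (158 ± 10.8) down to NP_Nts (116 ± 15.8) the next 7 types formed a slope in which no neighbours differed beyond their spread, and NP_Mrgpra3 and NF2_Ntrk2.Necab2 were lowest at 86.8 ± 23.0 and 86.5 ± 12.6 CPM. PEP3_Trpm8 was higher than the other types by 1.35 ± 0.10 (adjusted p = 8.69e-20), and by 1.25 with groups summed. NF_Pvalb exceeded the other NF types by 1.07 ± 0.13 (adjusted p = 5.61e-11) as a mean of log levels and by 0.88 with groups summed, which is under 2-fold.

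Isl2 had its 4 highest levels in the 3 NP types and Th. NP_Mrgpra3 held 464, 559, 585, 635 and 565 CPM (562 ± 62.3), NP_Nts 542 ± 89.0, Th 517 ± 143 and NP_Mrgprd 416 ± 41.2 CPM, and all their libraries lay above those of the other 8 neuron types, of which the highest was 244 CPM. Th libraries spread from 364 to 692 CPM, the widest range of any type for this gene. NF_Pvalb was lowest at 26.8, 19.8, 12.6, 21.8 and 15.5 CPM (19.3 ± 5.53), 29.1 times below NP_Mrgpra3 and below every library of the other neuron types, and 60.2% of its cells held an Isl2 UMI where 100% held an Isl1 UMI. NP types exceeded PEP types by 2.18 ± 0.08 (adjusted p = 1.72e-35), NF types lay below the other neurons by -2.14 ± 0.10 (adjusted p = 9.55e-32), and NF_Pvalb lay below the other NF types by -2.30 ± 0.20 (adjusted p = 1.75e-16). The same directions were found with groups summed, at 1.84, -2.50 and -2.20. In PEP3_Trpm8 and NF_Pvalb, the 2 types highest for Isl1, Isl2 was in the lower part of its range. Th and NP_Mrgprd, which came next for Isl1, were among the 4 types highest for Isl2. The correlation of both genes over the 12 neuron types was -0.40 (Pearson r of mean log2(CPM + 1), a description over types that share libraries).

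Tlx3 was highest in Th, with 389, 301, 338, 336 and 283 CPM in Sample1 to Sample5 (330 ± 40.8), then in PEP1_Slc7a3.Sstr2 (270 ± 18.2) and NP_Mrgpra3 (230 ± 13.2). Both steps were beyond the spread and held in 5 of 5 libraries, though the ranges overlapped. The next 5 types lay between 157 and 177 CPM without a difference between neighbours. Below a gap in which no libraries overlapped came PEP2_Htr3a.Sema5a (80.9 ± 8.70), NF_Calb1 (75.1 ± 5.97), PEP1_Dcn (71.1 ± 31.5) and NF_Pvalb (66.1 ± 13.1), while NF2_Ntrk2.Necab2 at 177 ± 40.7 CPM stood apart from the other 2 NF types. In PEP1_Dcn Sample1 was low, at 20.5 CPM from 4 cells, where the other libraries lay between 63.8 and 99.0. NF types were lower than the rest by -0.87 ± 0.07 (adjusted p = 5.43e-18), under the 2-fold limit, and by -1.05 with groups summed, over it.

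**Figure D5:**
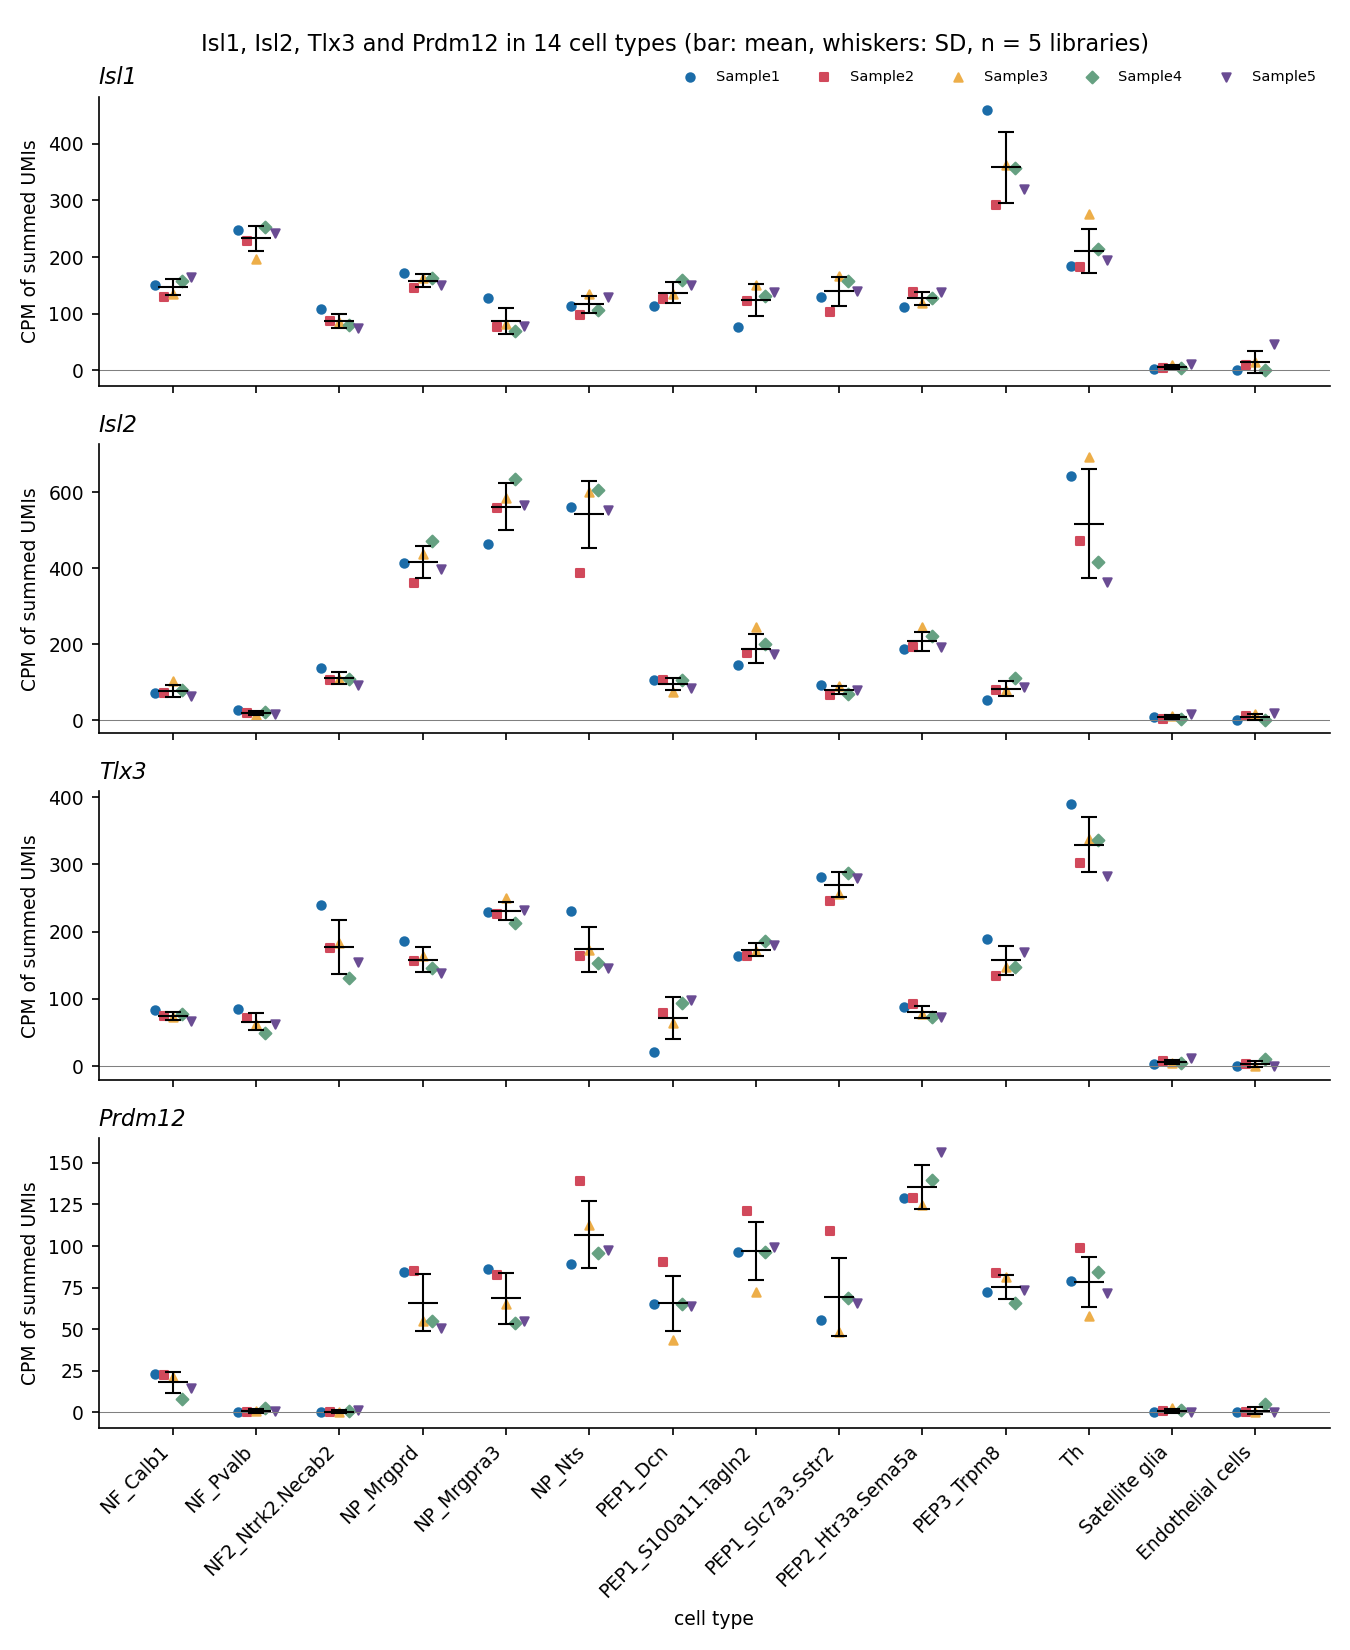
Isl1, Isl2, Tlx3 and Prdm12 in the 14 cell types along the x axis, as CPM of summed UMIs on linear y axes that differ between panels, where points are the 5 libraries, horizontal bars their mean and whiskers the SD. Isl2 lay at 416 to 562 CPM in the NP types and Th and at 19.3 CPM in NF_Pvalb, and Prdm12 lay at 66 to 136 CPM in the NP, PEP and Th types and under 1 CPM in NF_Pvalb and NF2_Ntrk2.Necab2.

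Comparison of the NF types with the NP, PEP and Th types asked which factors separate these broad groups. PEP2_Htr3a.Sema5a, whose neurofilament markers exceeded those of NF2_Ntrk2.Necab2, was counted with the PEP types. Of 9 members 6 were called, where 24.9% of all genes were (13.4% higher, 11.4% lower). Runx1, Prdm12 and Isl2 were lower and Runx3, Pou4f2 and Pou4f3 higher, and the folds of the last 3 rest on types with 3 UMIs or fewer. Runx1 was lower by -2.57 ± 0.11 (adjusted p = 3.37e-32) and in 5 of 5 libraries. With groups summed, again 6 of 9 were called where 30.3% of all genes were (15.8% higher, 14.5% lower), with Tlx3 in place of Pou4f3. Pou4f2 was then higher by 1.44 ± 0.19 (adjusted p = 1.02e-05), and the call of Pou4f3 was lost (0.39 ± 0.32, adjusted p = 0.287). Pou4f1 and Isl1 differed by 0.15 ± 0.07 and -0.12 ± 0.07 and were not called. NP types against PEP types gave 2 of 9 calls, Isl2 higher and Pou4f3 lower, where 19.2% of all genes were called (5.57% higher, 13.6% lower), and with groups summed the same 2 of 8 tested where 23.6% were (7.78% higher, 15.9% lower). Runx1 and Tlx3 were higher in NP types by 0.52 ± 0.09 (adjusted p = 1.12e-06) and 0.55 ± 0.07 (adjusted p = 3.04e-10), both under 2-fold. In pooled CPM, which weights types by their UMIs, Runx1 stood at 162 in NP and 104 in PEP types. Tlx3 stood at 156 and 153, a ratio of 1.02 (exact interval 0.991 to 1.04), so its difference depended on how types were averaged. Within the NF types, NF_Pvalb differed from the others in 6 of 9 members, where 14.1% of all genes were called (7.07% higher, 7.05% lower). Runx3, Runx1 and Isl1 were higher and Pou4f1, Pou4f2 and Isl2 lower, and with groups summed 5 of 8 tested were called where 12.2% of all genes were (4.88% higher, 7.3% lower). The call of Runx1, 1.14 ± 0.21 (adjusted p = 6.90e-06), became 0.74 with groups summed and was no longer called (adjusted p = 0.0103), whereas Prdm12, lower by -2.06 ± 0.73 (adjusted p = 0.0212), was then called at -3.78. Prdm12 was also called without Sample4, at -3.05 (adjusted p = 0.00765).

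When each neuron type was set against the other 11, 50 of 108 pairs of factor and type were called, 34 higher and 16 lower, where 17.9% of all pairs of gene and type were called (10.7% higher, 7.13% lower). With the other types summed, 49 of 107 pairs were called, 11 higher and 38 lower, where 20.7% of all pairs were (8.05% higher, 12.6% lower). By construction a mean of logs counts types near 0 UMIs as fully as the others, and a sum does not. Of the 50 pairs, 27 kept their call and direction, 19 kept the direction but not the call, and 4 turned. Those were Pou4f2 in NF_Pvalb, NP_Mrgprd, PEP1_Dcn and PEP3_Trpm8, which went from 1.5, 1.42, 1.23 and 2.32 to -0.87, -1.28, -1.13 and -0.061. The call in PEP1_Dcn was also lost without Sample2, at 0.48 (adjusted p = 0.263), as it was without Sample1 or Sample5, and that in NF_Pvalb was lost without Sample4, at 1.09 (adjusted p = 0.032). Pairs called both ways included Tlx3 in Th (1.29 ± 0.09), Prdm12 in PEP2_Htr3a.Sema5a (2.12 ± 0.13), Isl2 in NF_Pvalb (-3.42 ± 0.18) and Runx1 in NF2_Ntrk2.Necab2 (-3.32 ± 0.23).

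Genes related to these factors or known to work with them were counted from lists, with edgeR's adjusted p and the 2-fold limit as before. The first list held 7 genes, the relative Runx2 and Runx partners and corepressors. Of these 7, 3 were lower in the NF types than in the other neurons (Runx2, Tle1, Tle2) and 0 higher. In NF_Pvalb against the other NF types 4 were higher (Cbfb, Runx2, Runx1t1, Tle2) and 2 lower (Tle1, Tle4). Over all genes 13.4% were called higher and 11.4% lower in the first comparison, and 7.07% and 7.05% in the second. The largest differences within the NF types were Runx2 (4.54 ± 0.80, at 4.61 CPM in NF_Pvalb), Tle4 (-3.29 ± 0.26) and Tle2 (2.60 ± 0.34). The list's median was 1.35 there, beside 0.01 for all genes. Cbfb, chosen here after its values were seen, the shared partner that Runx proteins need to bind DNA firmly, was higher in NF_Pvalb by 1.35 ± 0.11 (adjusted p = 1.44e-16), with 432 CPM there against 210 and 135 in the other NF types, and lower in NP than in PEP types by -1.77 ± 0.08 (adjusted p = 2.33e-32). Its level in NP_Mrgprd, 32.4 CPM, was below the 47.9 CPM of satellite glia. Of 8 LIM, POU and PRDM partners, Ldb2, which bridges LIM proteins, and Klf7 were lower in NF types, by -4.36 ± 0.14 and -2.16 ± 0.08, and Lmo4 was higher by 1.99 ± 0.14. The list's median log2 fold change was -0.15, beside -0.04 for all genes. Lmo4 stood at 167 CPM in NF_Pvalb, 81.4 in NF_Calb1 and 69.5 in NF2_Ntrk2.Necab2. It stood at 95.1 CPM in NP_Nts and 2.18 in PEP1_Slc7a3.Sstr2, and was also higher in NP than in PEP types (2.27 ± 0.16). The lists were not fitted with groups summed. Of 12 other sensory lineage factors 11 had a row and 7 passed the filter on low counts, with 5 higher and 1 lower in neurons against glia where 24.9% and 25.8% of all genes were, and 0 higher and 3 lower in NF types, where 13.4% and 11.4% were, and Neurog1, Neurog2, Neurod1, Drgx and Eya1 were not tested. The median of the 7 was 4.16 in neurons against glia, beside 0.11 for all genes, and -0.87 in NF types, beside -0.04. Hmx1, a homeodomain factor, and Zeb2 were lower in NP than in PEP types, by -6.62 ± 0.37 and -6.00 ± 0.20. Hmx1 was at most 0.61 CPM in an NP type and 0 in NP_Mrgpra3, so its fold rests on levels near 0. Among PEP types it ran from 3.01 CPM in PEP1_S100a11.Tagln2 to 84.5 in PEP3_Trpm8.

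Most genes known from mutant mice to need Runx1 or to be held low by it differed between NP and PEP types. Of 7 tested genes known to need Runx1, 6 were higher in NP types, where 5.57% of all genes were called higher and 13.6% lower, among them the receptors Mrgpra3 (6.09 ± 0.37), Mrgprd (3.44 ± 0.39) and P2rx3 (2.57 ± 0.13), and Trpm8, the cold receptor, was lower (-4.51 ± 0.64). The list's median was 2.46 and that of all genes -0.03. Of the genes known to be held low by Runx1, Asic3 (-4.91 ± 0.35) and Calca (-1.81 ± 0.17) were lower in NP types. Not every type followed its group. Mrgprd stood at 245 CPM in NP_Mrgprd, but at 7.88 in NP_Mrgpra3 and 2.88 in NP_Nts. Mrgpra3 stood at 468 CPM in NP_Mrgpra3, 7.83 in NP_Nts and 1.23 in NP_Mrgprd. Its fold rests on PEP types of up to 0.872 CPM. Calca stood at 8599 CPM in NP_Mrgpra3, above PEP2_Htr3a.Sema5a (6715) and PEP3_Trpm8 (446) and below the PEP1 types. P2rx3 was at least 169 CPM in each NP type and up to 122 in PEP types. Runx1 itself differed by 0.52 between these groups and was high in PEP1_Slc7a3.Sstr2 and PEP3_Trpm8. In NF types against the others, 5 of the 7 genes that need Runx1 were lower, where 11.4% of all genes were, and so was Calca (-5.22 ± 0.21), which is held low by it. The 3 genes tied to Runx3, Ntrk3, Ntrk2 and Pvalb, were all called higher in the mean of the NF types, where 13.4% of all genes were. The list sets no direction for its genes. Not every NF type was high, since Ntrk2 stood at 9.04 CPM in NF_Pvalb against 81.0 in PEP1_Dcn. Ntrk2 was highest in NF2_Ntrk2.Necab2, at 756 CPM, the NF type with 1 Runx3 UMI. Pvalb stood at 2.43 CPM in NF2_Ntrk2.Necab2 against 8.95 in PEP1_Slc7a3.Sstr2. Between NF_Pvalb and the other NF types Pvalb was higher (7.14 ± 0.35), Ntrk2 lower (-5.23 ± 0.27) and Ntrk3 not called. Over all genes 7.07% were called higher and 7.05% lower there. Several of the genes in these lists are markers that name the types.

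For each factor the genes with the most alike pattern over the 12 neuron types were sought among 9969 genes, by the Pearson r of mean log2(CPM + 1), given with no p because the types share libraries. Runx3 was closest to Ano1 (r = 0.996), Gm16551 (0.992) and Pappa2 (0.991), all highest in NF_Pvalb. Runx1 was closest to Eed (0.96), Rchy1 (0.95) and Rsl24d1 (0.94), Pou4f1 to Hcrtr2 (0.91), Scin (0.91) and Alg14 (0.89), and Pou4f2 to Eci1 (0.94), Rnf13 (0.94) and Gal3st1 (0.93). Pou4f3 was closest to Cpxm1 (0.91), Kazn (0.89) and Ebf4 (0.88), Isl1 to Parp10 (0.91), Scn2a1 (0.90) and Zfp422 (0.89), Isl2 to Acbd4 (0.95), Actl6a (0.94) and Rita1 (0.94), Tlx3 to Tmem138 (0.92), Pgpep1 (0.90) and Mzt1 (0.89), and Prdm12 to Cd9 (0.95), Tmem115 (0.94) and Prkd1 (0.94). Over all 14 types 6 of these 27 pairs recurred, so the lists depend on whether the non-neuronal cells are included. Among the factors themselves the highest r was 0.65 for Pou4f1 with Pou4f2, followed by 0.62 for Runx1 with Prdm12 and for Isl2 with Prdm12, and the lowest was -0.72 for Runx3 with Isl2.

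In the order of each factor over the 14 types there are 117 pairs of neighbours, and 30 of them differed beyond the spread over libraries. Tlx3 had 5 such steps, Pou4f3 1 and Runx3 and Pou4f2 2 each, so an order printed here beyond the named gaps is not resolved by 5 libraries.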

How the data were processed

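Single-cell RNA counts of lumbar DRG from 5 mice were used. Per the labels and the paper's methods, the authors made 3′ end libraries, aligned reads to mm10 with the UCSC gene model, counted UMIs with Cell Ranger, clustered cells with Seurat and deposited raw UMI counts, with no normalization, and 1 cell type per cell as text. The authors state a mitochondrial limit of 10%; 188 cells exceeded it by the deposited counts and were kept, and their removal was an alternative. Rows of no mouse gene (4) were dropped.

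The 5 library identifiers in the cell names were each taken as 1 mouse and named Sample1 to Sample5 from equal numbers of cells per type in the study's supplement (70 of 70 equal). No library was tied to a sample label or a sex, and animal and batch cannot be told apart.

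UMIs were summed per type and library and tested with edgeR 4.0.16 in R 4.3.3 (filterByExpr, TMM, quasi-likelihood), with Benjamini-Hochberg adjustment over 11886 genes; contrasts are means of the types' log levels. A gene was called at an adjusted p under 0.01 and at least 2-fold. Because a mean of logs is undefined for types at 0, a fit with groups summed first was added after seeing the data. Alternatives were DESeq2 1.42.0, no TMM, no filter, sums of at least 10 cells, other thresholds, pseudocounts (1 CPM in the main analysis) and thinning, and each library left out. Sums of types come from the same mouse; their residuals correlated at a median of 0.086 within a library (-0.025 to 0.42, 455 pairs) and -0.021 between libraries (1820 pairs). With the replicate block 85 values of the members kept their call or lack of one and 2 lost their call. Intervals are exact at 95% and cover counting error only. The test was checked on simulated counts in which genes changed in the NF types alone and were otherwise level over all types. Genes at 0 UMIs in some types and high in others were not covered by this check. No doublet caller was run.

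Named were the 9 members, the 3 genes most like each, and list members with the largest differences. Members and lists were chosen with earlier results of these data known. 1 of the listed genes is not reported here.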

Additional observations from a re-analysis of the deposited data

Results flagged for a closer look

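Among 87 combinations of factor and type with a UMI in every library, 6 had 1 library far from the other 4 by Dixon's test, and chance alone gives about 1 in 20. Runx3 in NF_Calb1 stood at 73.8 CPM in Sample1, from 16 cells, against 22.0 to 28.2 in the others; 6 of those 16 cells (37.5%) held Runx3, against 13.4% to 20.7% elsewhere. Pou4f2 in PEP3_Trpm8 stood at 18.02 CPM in Sample1, from 9 cells, against 5.87 to 7.14, and the mean without it was 6.61. Pou4f3 in NF_Calb1 stood at 4.30 CPM in Sample1 against 2.29 to 2.70. Isl1 in NP_Mrgpra3 stood at 127 CPM in Sample1, from 4 cells, against 70.1 to 82.0. Runx1 in PEP1_S100a11.Tagln2 stood at 118 CPM in Sample2 against 97.9 to 103, and Isl2 in NP_Nts at 388 CPM in Sample2 against 552 to 607. Of the 6, 4 came from Sample1, the library with the fewest cells; the part of cell number in these values was not tested.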

How the results depend on the processing

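Of 160 values of the main counts and levels under the alternatives, 153 stayed within 1.5 times or 1 SD. With groups summed before the fit, the members called in neurons against satellite glia became 8, and the pairs of type and factor 11 higher and 38 lower. An adjusted p under 0.05 with no minimum fold gave 7 members in NP against PEP types and 30 lower pairs. With at least 2 UMIs of each gene, 48.3% of neurons with Runx3 held Runx1, and 6 of the genes most like the members recurred over all 14 types. Values that turned sign with groups summed were Pou4f2 in NF_Pvalb (-0.87), NP_Mrgprd (-1.28), PEP1_Dcn (-1.13) and PEP3_Trpm8 (-0.061) against the other neuron types, and Isl1 in NP against PEP types (0.084). Isl1 in NF against NP, PEP and Th types was 0.0021 with DESeq2. Leaving out each library gave -0.033 to 0.11 for Runx1 in neurons against satellite glia and -0.084 to 0.026 for Prdm12 in NP against PEP types. It left 5 or 6 members called in NF against NP, PEP and Th types, 6 or 7 in NF_Pvalb against the other NF types, and 33 to 35 higher and 13 to 16 lower pairs. With the replicate block 48 pairs were called, 34 higher and 14 lower, and the calls of Runx3 in PEP2_Htr3a.Sema5a (-2.90, adjusted p = 0.0105) and Isl2 in PEP3_Trpm8 (-0.99, under 2-fold) were lost, and no other call of the members changed. The call of Runx3 in NF against NP, PEP and Th types was lost without replicate 5 and without cells over the mitochondrial limit, and that of Prdm12 in NF_Pvalb against the other NF types was gained with DESeq2 (-2.09), with groups summed (-3.78) and without replicate 4 (-3.05). Apart from the summed groups, whose construction weights types by their cells, the cause was not tested. Low counts limit Runx3, Pou4f2 and Pou4f3, and few cells limit Sample1.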
